A study of Mus musculus with 12 samples.

Results

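Cells obtain vitamin B12 (cobalamin) by a route of named proteins, and 9 of their genes were followed here: Tcn2, Cd320, Lrp2, Cubn, Lmbrd1, Abcd4, Mmachc, Mmadhc and Hcfc1. They were taken by symbol from 55573 rows of gene counts, and all 9 were found. No measured value entered this rule, but the genes were chosen with earlier results of these data known. The RNA came from C57BL/6 mouse embryonic fibroblasts (MEFs) of E13.5 embryos with a cassette, switched on by doxycycline, of Oct4, Sox2, Klf4 and Myc (OSKM), the factors that can turn fibroblasts into pluripotent cells. Each of 3 embryos, called clones 1, 2 and 3, gave 1 library to each of 4 groups, all collected after 72 h in iPSC media. MEF received neither agent, MEF+B12 received 2 µM vitamin B12, OSKM received doxycycline at 1 µg/ml, and OSKM+B12 received both. All 4 groups carry the cassette. Because no uninduced cells received doxycycline, effects of the drug and of OSKM cannot be told apart.

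B12 circulates bound to transcobalamin (Tcn2), and the complex is taken up through the receptor Cd320. Megalin (Lrp2) is a large endocytic receptor that also takes up this complex, mainly in kidney and yolk sac, where it works beside cubilin (Cubn), the receptor for B12 bound to intrinsic factor. In the lysosome the carrier is digested, and Lmbrd1 and Abcd4 move free B12 across the membrane into the cytosol. Mmachc then removes the upper ligand of B12, and Mmadhc directs it either to methionine synthase in the cytosol or to methylmalonyl-CoA mutase in mitochondria. Hcfc1 is a transcriptional co-regulator that reaches promoters through the DNA-binding proteins Thap11 and Zfp143, and Mmachc is a known target.

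Library totals ran from 56971244 to 79236795 counted read pairs, and 19174 genes passed the filter on low counts, all 9 among them. The female-specific RNA Xist reached at most 0.0289 CPM (counts per 1000000 counts of a library) in clone 1 and at least 219 CPM elsewhere. Clone 1 also carries a later year in its titles than the others, so embryo, sex and year cannot be told apart for clone 1. Induction was uneven, with Pou5f1 (Oct4) at 2.33 and 2.86 CPM in induced cells of clone 3, at 18.5 to 20.7 CPM in those of the other clones, and at most 0.468 CPM without doxycycline. Averaged over B12, Pou5f1 rose by 5.96, Sox2 by 4.22 (adjusted p = 7.13e-05) and Myc by 0.88 (adjusted p = 0.0206) on the log2 scale, with Myc at 0.11 in both pairs of clone 3 and at 1.11 to 1.42 in the other 4. Klf4, the remaining factor of the cassette, fell by 0.12 (adjusted p = 0.0452) and was lower with doxycycline in 6 of 6 pairs. The OSKM library of clone 1 stood apart in its pseudogenes: over 1519 of them, the SD of the log2 difference from the other libraries of its clone was 0.556, against 0.114 to 0.247 in the other 11 libraries. The label was checked by markers: 12 fibroblast markers summed to between 91474 and 147009 CPM in each library, and 12 macrophage markers to between 1279 and 3272 CPM. In bulk RNA, fewer cells of a type and less RNA per cell cannot be told apart.

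Promoter sequences are shown for Mmachc, whose regulator Hcfc1 is among the 9 genes, and for Lrp2, the gene that passed the main test. RefSeq windows of 300 bases (250 before and 50 after the start, GRCm38.p6) were found for 6 of the 9 genes, and the bases before the start are printed 5′ to 3′ on the gene's strand, with matches to a searched motif in capitals. The Mmachc sequence is chr4:116708386-116708635 and the Lrp2 sequence is chr2:69586030-69586279, both on the minus strand.
Mmachc: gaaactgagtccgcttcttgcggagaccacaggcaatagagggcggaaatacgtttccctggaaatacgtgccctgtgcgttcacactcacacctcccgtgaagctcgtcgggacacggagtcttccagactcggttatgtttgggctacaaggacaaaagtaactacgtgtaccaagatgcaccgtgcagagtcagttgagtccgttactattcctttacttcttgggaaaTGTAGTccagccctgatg
Lrp2: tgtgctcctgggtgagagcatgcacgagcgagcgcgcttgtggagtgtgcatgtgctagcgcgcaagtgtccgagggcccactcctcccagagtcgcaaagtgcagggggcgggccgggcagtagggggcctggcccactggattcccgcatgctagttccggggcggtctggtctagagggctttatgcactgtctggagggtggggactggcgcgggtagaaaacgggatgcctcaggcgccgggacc

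Both strands of the windows were searched for ACTACA and TTCCCAG, which belong to the sequence bound by Zfp143 and Thap11, and for CACGTG, an E-box that Myc can bind. The Mmachc window held ACTACA once, read as TGTAGT at base 233 of 300, and TTCCCAG once, at base 287, which lies after the start and outside the bases shown. Of 32851 RefSeq windows of this length, 10.3% held ACTACA, 11.1% held TTCCCAG and 7.15% held CACGTG. None of the 3 motifs was in the windows of Lrp2, Cd320, Lmbrd1, Hcfc1 or Cubn. Tcn2, Abcd4 and Mmadhc had no window in the table used. The motifs do not overlap each other, and a match is a description of the letters.

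Per length, the carrier was the most abundant of the 9 RNAs and both large receptors the least. Tcn2 averaged 53.1 ± 7.60 RPKM (CPM per kilobase of exon, mean ± SD over 12 libraries), followed by Mmadhc at 25.9 ± 1.27, Hcfc1 at 13.1 ± 1.12 and Lmbrd1 at 6.79 ± 0.597 RPKM. Cd320 had 3.64 ± 0.394, Mmachc 2.55 ± 0.362 and Abcd4 1.71 ± 0.208 RPKM. Lrp2, at 0.113 ± 0.0391 RPKM, and Cubn, at 0.0980 ± 0.0218 RPKM, were 15.1 times or more below Abcd4. The ranges over libraries of neighbours in this order overlapped for Cd320 and Mmachc and for Lrp2 and Cubn, and for no other neighbours. The order depends on the exon length used: with the longest transcript in place of all exons, Abcd4 came to 3.70 RPKM and passed Mmachc at 2.69, and Cubn came to 0.130 and passed Lrp2 at 0.122.

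**Figure D1:**
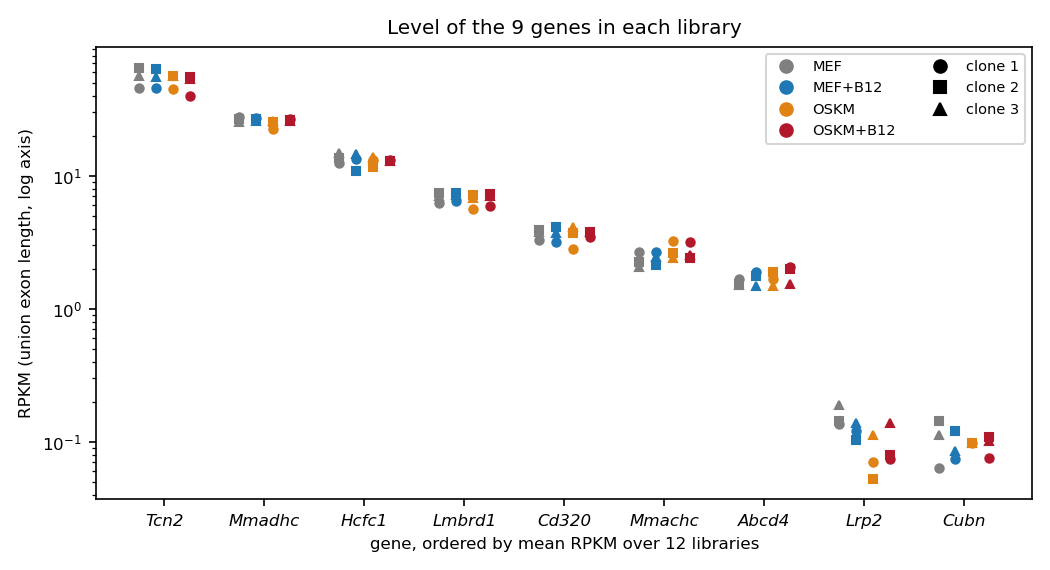
RPKM (log axis) of the 9 genes in each of the 12 libraries, with colour for the group and symbol for the clone. The genes span from 65.2 RPKM at most for Tcn2 to 0.0528 RPKM at least for Lrp2, and the groups of a gene lie close together except for Lrp2.

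The receptors Lrp2 and Cubn are hallmarks of absorptive epithelium, so markers of kidney tubule and yolk sac were read beside them. Of 7 such markers, 5 did not pass the filter: Umod, of the kidney tubule, had 0 counts in all 12 libraries, and Slc34a1, Slc5a2, Ttr and Apoa1 reached at most 4 counts in any library. The other 2 were Aqp1, a water channel also made by other cells, at 31.003 to 56.96 CPM, and Afp, a yolk sac and liver protein, at 0.256 to 1.011 CPM. Afp had 0.256 to 0.490 CPM without B12 and 0.547 to 1.011 CPM with it, and was higher with B12 in 6 of 6 pairs. It was called higher in MEF and averaged over states, while Aqp1 was lower with B12 in 6 of 6 pairs. Lrp2 rested on 51 to 201 counts per library and Cubn on 55 to 135.

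The first question was whether induction of OSKM altered the route. Averaged over both B12 conditions, 1 of the 9 genes passed the threshold (edgeR quasi-likelihood test, adjusted p under 0.05), the endocytic receptor Lrp2, which fell. Of all 19174 genes, 9.73% passed. At an unadjusted p under 0.05 there were 4 of the 9 genes, Lrp2, Tcn2, Mmachc and Lmbrd1, against 26.8% of all genes. The median log2 fold change of the 9 was -0.05, against -0.0028 for all genes tested, and 2 of the 9 were above 0 against 49.1% of all genes.

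Lrp2 (ENSMUSG00000027070, GRCm38 chromosome 2, 69424340 to 69586065, minus strand, 80 exon blocks) was lower in induced cells of each clone. It had 2.29, 2.37 and 3.17 CPM in MEF for clones 1, 2 and 3, and 1.17, 0.882 and 1.86 CPM in OSKM. With B12 it had 1.99, 1.70 and 2.32 CPM in MEF+B12 and 1.23, 1.33 and 2.30 CPM in OSKM+B12. Without B12 the groups did not overlap, while with B12 they did, since clone 3 had 2.30 CPM induced and 2.32 CPM uninduced. The log2 fold change averaged over B12 was -0.68 ± 0.12 (SE, adjusted p = 0.0172, edgeR), a fold of 0.624 with a 95% interval of 0.523 to 0.744, and the value was lower in 6 of 6 pairs of libraries from the same clone. Here and throughout, the 6 pairs come from 3 embryos and are not independent. The share of all genes that moved one way in all 6 pairs was not counted. The call was lost without clone 1 or clone 2 and without the pairing: without clone 1, which leaves only the libraries of the earlier year, the change was -0.61 (adjusted p = 0.260), without clone 2 it was -0.59 (adjusted p = 0.426), and without the clone as a block it was -0.65 (adjusted p = 0.253). The call was kept without clone 3, at -0.85 (adjusted p = 0.00556), and without the OSKM library of clone 1, at -0.69 (adjusted p = 0.0397).

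Split by B12, the fall of Lrp2 was called neither without nor with B12. Without B12 the log2 fold change was -1.02 ± 0.16 (adjusted p = 0.0683), the rank of its p being 18 among all genes, and the clones gave -0.95, -1.40 and -0.76. With B12 it was -0.34 ± 0.16 (adjusted p = 0.364), and the clones gave -0.68, -0.35 and -0.01. DESeq2 called the change without B12 (-1.03, adjusted p = 0.000567), and so did edgeR without the filter (-1.02, adjusted p = 0.00134) and without clone 3 (-1.18, adjusted p = 0.0148). No other gene of the 9 was called in either comparison, and 2 of the 9 genes without B12 and 1 with B12 had an unadjusted p under 0.05. Of all genes, 0.073% were called without B12 and 0.104% with B12, and 19.0% and 14.9% had an unadjusted p under 0.05.

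Markers of epithelium and mesothelium were read beside the fall of Lrp2. Their summed levels were higher on average in induced cells, with the 7 epithelial markers at 0.915 ± 0.272 CPM in MEF and 2.99 ± 1.93 CPM in OSKM and the 5 mesothelial markers at 29.7 ± 5.96 and 55.0 ± 19.8 CPM (mean ± SD, n = 3 each). The libraries overlapped, with epithelial sums of 0.757 to 1.23 CPM in MEF and 0.833 to 4.53 CPM in OSKM. Mesothelial sums were 24.2 to 36.0 and 33.3 to 72.1 CPM. Krt8 alone averaged 1.96 CPM in induced cells without B12, most of the epithelial sum, against 0.288 CPM uninduced. Of its 31-base words, 32.3% occur in other genes. On average Krt18 went from 0.387 to 0.373 CPM with induction, and Wt1, a mesothelial marker, from 2.85 to 2.70 CPM. Epcam was near level, at 0.0462 and 0.0515 CPM. The means of Cdh1 and Cldn7 rose, as did those of Msln, Upk3b, Upk1b and Krt19 among the mesothelial markers. In clone 3 without B12, Krt8 had 0.284 CPM uninduced and 0.256 CPM induced, and Msln 8.78 and 6.96 CPM. Cdh1, at 0.0946 and 0.218 CPM, and Krt19, at 6.95 and 8.46 CPM, were higher there. Of the epithelial markers, 4 passed the filter, 2 of them were called higher averaged over B12 and none lower; of the mesothelial markers, 3 of 5 were called higher and none lower. The fibroblast markers had 4 of 12 called lower and none higher. Endothelial markers summed to 46.2 ± 1.89 CPM in MEF and 110.7 ± 47.7 CPM in OSKM (SD, n = 3 each), and of the 4 of 7 that passed the filter 3 were called higher and none lower. Most of this sum was Tek, at 38.7 CPM in MEF and 101 CPM in OSKM. Cdh5 had 0.919 and 2.42 CPM, Erg 2.45 and 3.19 CPM and Kdr 3.91 and 3.89 CPM. Pecam1, Emcn and Tie1 did not pass the filter and reached at most 19, 3 and 12 counts in any library. Of 5 neural markers 2 were called lower and none higher. In this comparison, induction averaged over B12, 9.73% of all genes were called. The part of these cells in the level of Lrp2 was not tested.

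Across the 12 libraries, the genes whose log2 CPM most resembled that of Lrp2 were Kif26b (Pearson r = 0.950, Spearman rho = 0.923), Artn (0.925 and 0.923) and Fam110b (0.923 and 0.846), among 11925 genes compared. These values are a description, since the 12 libraries share clones and groups.

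Cubn (ENSMUSG00000026726, chromosome 2, 13276338 to 13491813, minus strand) did not move with Lrp2. The 3 libraries of MEF ran from 0.952 to 2.13 CPM and those of OSKM from 1.45 to 1.47 CPM, while MEF+B12 ran from 1.11 to 1.79 CPM and OSKM+B12 from 1.12 to 1.62 CPM, so that all groups overlapped. The log2 fold change with induction was -0.02 (95% interval -0.33 to 0.29), with 3 of 6 pairs higher. Of its exon length, 2.46% overlaps the opposite-strand gene Gm13270, and the counting used strand.

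The carrier and its receptor came next. Tcn2 (ENSMUSG00000020432, chromosome 11, 3917192 to 3932159, minus strand) had 99.2, 142 and 122 CPM in MEF for clones 1, 2 and 3, and 97.9, 122 and 122 CPM in OSKM. It had 100.4, 138 and 120.4 CPM in MEF+B12 and 86.3, 120.2 and 117 CPM in OSKM+B12. Clone 1 was the lowest in every group, and the groups overlapped throughout. The log2 fold change with induction averaged over B12 was -0.12 ± 0.04 (adjusted p = 0.0815), below 0 in 6 of 6 pairs, and it passed the threshold without clone 3 (-0.16, adjusted p = 0.0437). Cd320 (ENSMUSG00000002308, chromosome 17, 33843091 to 33849774, plus strand), the receptor that takes up the complex, had 9.40, 11.3 and 10.8 CPM in MEF and 8.16, 10.7 and 11.9 CPM in OSKM. In the cells given B12 it had 9.13, 11.97 and 10.7 CPM in MEF+B12 and 9.97, 10.9 and 10.9 CPM in OSKM+B12. Its log2 fold change with induction was -0.02, with an interval of -0.15 to 0.12, and 3 of 6 pairs were higher.

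The lysosomal exporters moved little. Lmbrd1 (ENSMUSG00000073725, chromosome 1, 24678630 to 24766301, plus strand) had 37.2, 44.3 and 41.8 CPM in MEF and 33.7, 42.7 and 40.4 CPM in OSKM, and with B12 it had 38.3, 44.5 and 42.6 CPM uninduced and 35.4, 43.2 and 41.9 CPM induced. Each clone kept its place, clone 1 lowest and clone 2 highest, in all 4 groups. The log2 fold change with induction was -0.07 ± 0.03 (adjusted p = 0.162), below 0 in 6 of 6 pairs. Abcd4 (ENSMUSG00000021240, chromosome 12, 84601464 to 84617413, minus strand) had 13.4, 12.4 and 12.1 CPM in MEF and 13.45, 15.1 and 11.8 CPM in OSKM. It had 15.2, 14.1 and 11.8 CPM in MEF+B12 and 16.4, 16.0 and 12.3 CPM in OSKM+B12. Its log2 fold change with induction was 0.10, with an interval of -0.02 to 0.23.

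In the cytosol, Mmachc (ENSMUSG00000028690, chromosome 4, 116702279 to 116708406, minus strand), the gene whose promoter is printed above, had 5.97, 5.03 and 4.57 CPM in MEF and 7.21, 5.81 and 5.31 CPM in OSKM. It had 5.91, 4.73 and 5.49 CPM in MEF+B12 and 7.03, 5.37 and 5.67 CPM in OSKM+B12. Within each clone the induced library was the higher one, in 6 of 6 pairs, but the groups overlapped because clone 1 lay above the others. The log2 fold change with induction was 0.19 ± 0.06 (adjusted p = 0.07998), and it passed with plain library totals in place of normalized ones (0.24, adjusted p = 0.0427). Other genes share 4.38% of its words of 31 bases. Mmadhc (ENSMUSG00000026766, chromosome 2, 50279881 to 50296801, minus strand) lay between 45.6 CPM, in the OSKM library of clone 1, and 55.5 CPM, in the MEF library of the same clone, with a log2 fold change of -0.06 and an interval of -0.15 to 0.03. Hcfc1 (ENSMUSG00000031386, chromosome X, 73942792 to 73966357, minus strand), the co-regulator, lay between 91.2 and 125 CPM, and its log2 fold change with induction was -0.05 with an interval of -0.17 to 0.08.

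**Figure D2:**
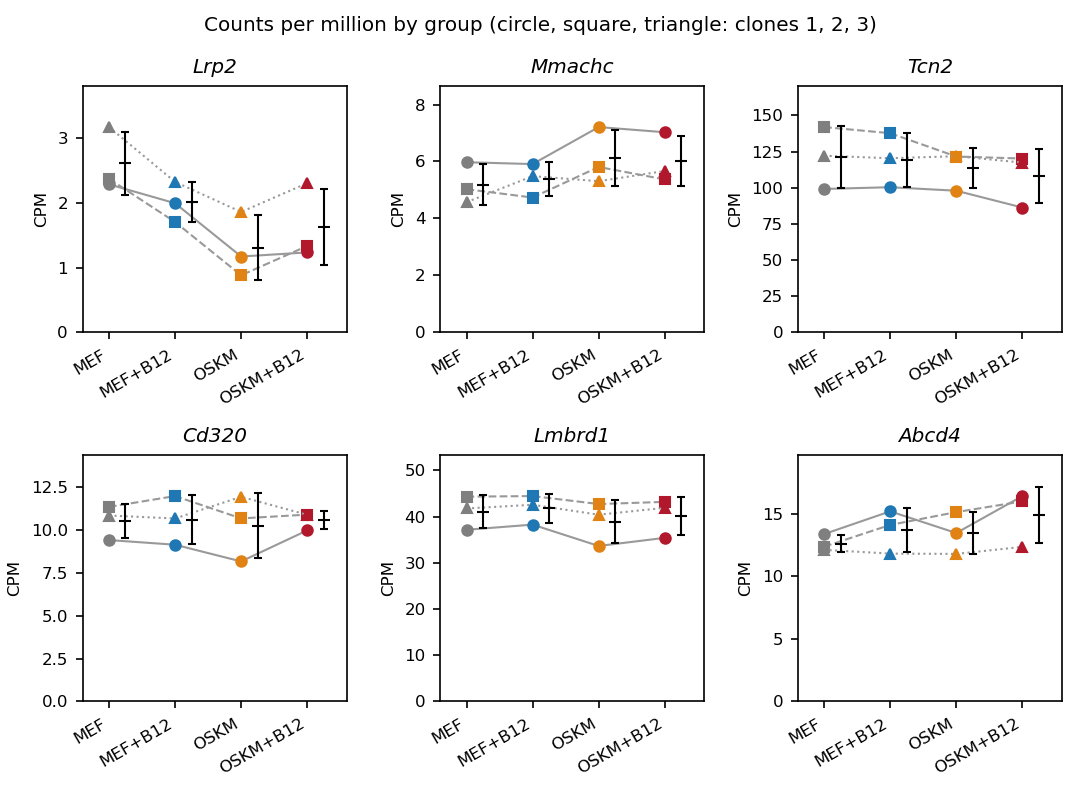
CPM of 6 of the 9 genes by group, with a symbol and line for each clone and black bars for the mean ± SD of 3 libraries. Lrp2 is lower in induced cells of every clone, Mmachc is slightly higher, and Tcn2, Cd320 and Lmbrd1 are lowest in clone 1.

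The second question was whether B12 supplementation altered the route that handles it. Of the 9 genes, 0 were called by edgeR in OSKM cells, in MEF or averaged over both, and DESeq2 also called 0 in each. At an unadjusted p under 0.05 there were 0 in OSKM, 1 in MEF (Lrp2) and 1 averaged over both (Abcd4). Of all genes, 1.06% were called in OSKM, 1.38% in MEF and 3.84% averaged over both, and 9.82%, 10.3% and 15.5% had an unadjusted p under 0.05. The median log2 difference of the 9 averaged over states was 0.02, against -0.01 for all genes tested, and 5 of the 9 were above 0 against 44.9% of all genes.

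For the 7 genes other than Lrp2 and Cubn, the B12 intervals were narrowest when averaged over states, where both pairs of an embryo count as separate. Averaged in this way, the log2 differences of the 7 ran from -0.05 for Tcn2 to 0.13 for Abcd4. The outermost bounds of their 95% intervals were folds of 0.899 and 1.19. Each interval is for 1 gene, so these bounds do not cover the 7 jointly at 95%. Within a state the bounds were wider, at 0.861 and 1.25 in OSKM and 0.833 and 1.22 in MEF. For induction averaged over B12 the same bounds were 0.870 and 1.26. The largest B12 difference of the 7, in Abcd4, was 0.13 ± 0.06 (adjusted p = 0.296), above 0 in 5 of 6 pairs. Cd320, the uptake receptor, differed by 0.03 (interval -0.10 to 0.16). Lmbrd1 was above 0 in 6 of 6 pairs, by 0.0042 to 0.073 on the log2 scale, with a fitted difference of 0.04 (interval -0.03 to 0.10). Cubn was bounded less tightly, with a difference of -0.12 and an interval of -0.43 to 0.19.

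**Figure D3:**
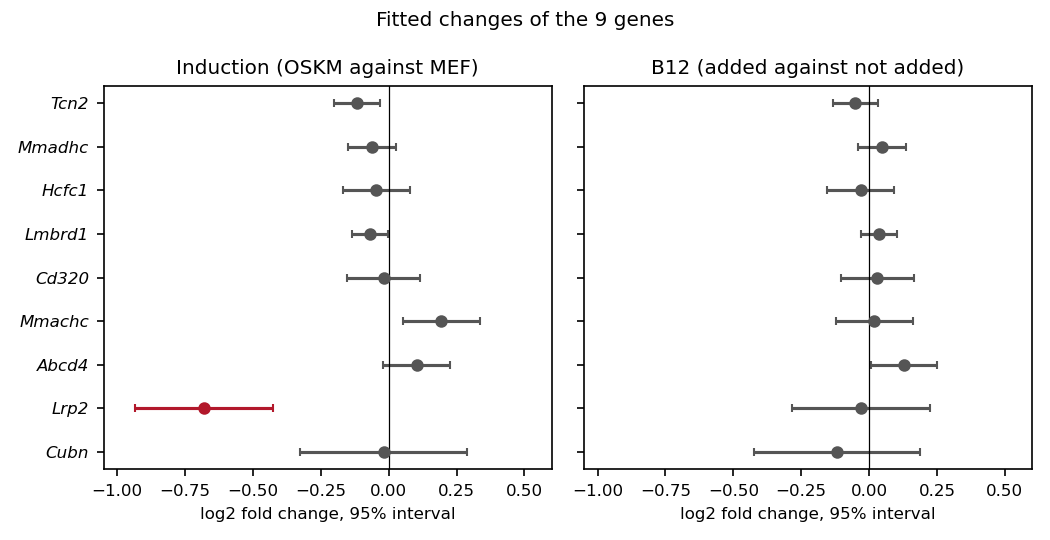
Fitted log2 fold changes of the 9 genes with their 95% intervals, for induction averaged over B12 (left) and for B12 averaged over both states (right). The only gene past the threshold, in red, is Lrp2 with induction, at -0.68, and the B12 intervals of all but Abcd4 include 0.

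Lrp2 differed with B12 in opposite directions in the 2 states. In MEF its log2 differences with B12 were -0.19, -0.47 and -0.44 in clones 1, 2 and 3, a fitted value of -0.37 ± 0.16 (adjusted p = 0.436). In OSKM they were 0.07, 0.58 and 0.30, a fitted value of 0.31 ± 0.17 (adjusted p = 0.584). The interaction, the B12 difference in OSKM minus that in MEF, was 0.68 ± 0.23 with an unadjusted p of 0.0130 in edgeR, and the adjusted p was 1. Its p ranked 44 of all genes, and 0.0% of all genes were called for the interaction, with 1.42% at an unadjusted p under 0.05. Of the 9 genes, 0 were called and 1 had an unadjusted p under 0.05, by edgeR and by DESeq2 alike. The comparisons share libraries, so these values are not independent of the induction values above.

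The clone took the largest share of the spread in 6 of the 9 genes. The share of all genes in which the clone, or induction, took the largest part was not counted. In a division of the sum of squares of log2 CPM, the clone took 86.7% for Lmbrd1, 84.4% for Tcn2, 73.9% for Cd320, 61.6% for Cubn, 60.4% for Mmachc and 57.2% for Abcd4, against a median of 38.0% over all genes. Lrp2 was the only one of the 9 in which induction took the largest share, 47.0%, with 33.8% for the clone. In Mmachc induction took 26.3%, against a median of 7.84% over all genes. Mmadhc was the least divided by clone, at 3.75%, and 51.1% of its spread was residual.

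Clone 1 stood apart in 4 of the 9 genes, with its 4 libraries all above or all below the other 8: Mmachc was higher, and Cd320, Tcn2 and Lmbrd1 were lower. Of all genes, 16.9% stood apart in this way in clone 1. Tcn2 ran from 86.3 to 100.4 CPM in clone 1 and from 117 to 142 CPM in the others. The X-linked Hcfc1 did not stand apart, at 105 to 112 CPM in clone 1 within the 91.2 to 125 CPM of the other 8 libraries. In clone 2, Lmbrd1 stood apart as higher (1 of 9 genes, against 3.18% of all genes), and in clone 3, Abcd4 as lower (1 of 9, against 4.06%). The response to induction differed between clones past the threshold for 0 of the 9 genes and for 2.15% of all genes (edgeR F test), and 0 of the 9 against 14.8% had an unadjusted p under 0.05. DESeq2 called 0 of the 9 as well.

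**Figure D4:**
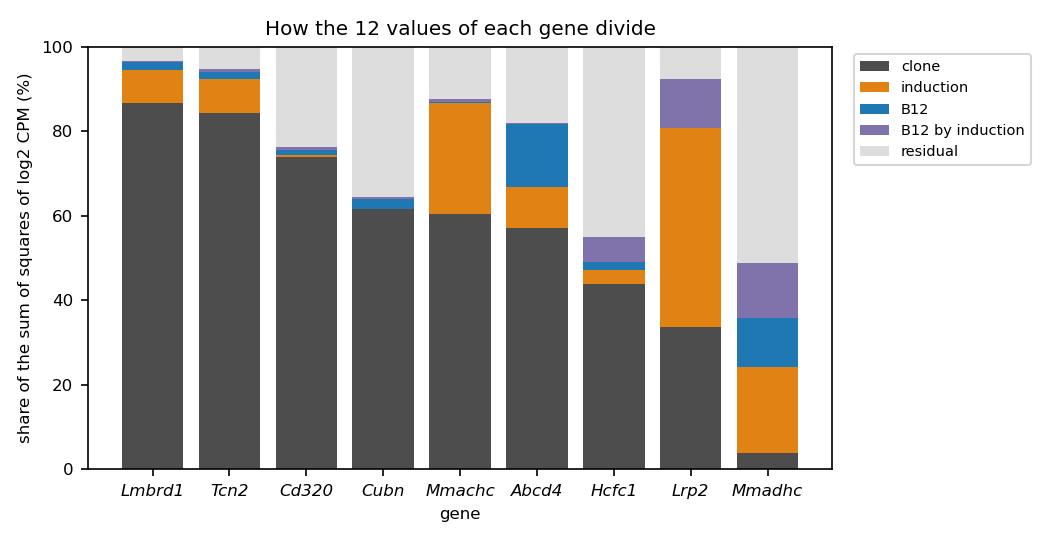
Share of each gene's sum of squares of log2 CPM over 12 libraries taken by clone, induction, B12, their interaction and the residual, as stacked bars in percent. The clone takes the largest share in 6 genes, up to 86.7% in Lmbrd1, while induction leads in Lrp2 at 47.0%. The median share of the clone over all genes tested was 38.0%.

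The enzymes that use B12 were read beside the route that delivers it. Of 6 genes of the methionine synthase and methylmalonyl-CoA mutase arms (Mtr, Mtrr, Mmut, Mmaa, Mmab and Mcee), 0 passed the threshold in any comparison. Of all genes, 9.73% passed with induction and 3.84% with B12, each averaged, so 0 of 6 does not set these genes apart. Of the 9 genes of the route, 1 passed with induction and 0 with B12. Mmab, which adds the adenosyl group to B12, had the smallest p of the 6 with induction, with a log2 fold change of 0.10 ± 0.04 (adjusted p = 0.104), and 5 of 6 pairs were higher. With B12 it differed by -0.08 ± 0.04 (adjusted p = 0.299). Both unadjusted p-values were under 0.05, and no other enzyme had one in the 2 averaged comparisons.

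Among 7 further genes of uptake and efflux, 2 rose with B12. Both were called in MEF and averaged over states, and 1 of them in OSKM. Of all genes, 1.38% were called in MEF, 3.84% averaged and 1.06% in OSKM. Abcc1, an export pump that can carry B12 out of cells, had 57.3, 49.7 and 47.8 CPM in MEF and 73.6, 63.1 and 61.2 CPM in MEF+B12 for clones 1, 2 and 3. It had 57.7, 47.5 and 48.3 CPM in OSKM and 67.6, 61.8 and 57.1 CPM in OSKM+B12. The log2 difference with B12 was 0.35 ± 0.04 in MEF (adjusted p = 0.00398), 0.28 ± 0.04 in OSKM (adjusted p = 0.0138) and 0.32 ± 0.03 averaged over both (adjusted p = 0.000294), with 6 of 6 pairs higher. Dab2, an adaptor that binds the tail of megalin and is also made by macrophages, had 375, 273 and 220.4 CPM in MEF and 528, 390.4 and 308 CPM in MEF+B12. It had 429, 248 and 221 CPM in OSKM and 437, 358 and 308 CPM in OSKM+B12, where clone 1 differed least. The log2 difference with B12 was 0.50 ± 0.08 in MEF (adjusted p = 0.0163), 0.34 ± 0.08 in OSKM (adjusted p = 0.102) and 0.42 ± 0.06 averaged over both (adjusted p = 0.00209). Cblif, the gastric intrinsic factor, had 0 counts in all 12 libraries. Amn, the membrane anchor of cubilin, had 4 to 27 counts per library and a log2 fold change with induction of -0.78 ± 0.22 (adjusted p = 0.0512). The 3 remaining genes of this list were tested and not called in any comparison.

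Of 5 genes read beside Hcfc1 and Mmachc, 1 rose with B12, called in MEF and averaged over states and not in OSKM. The shares of all genes called there were 1.38%, 3.84% and 1.06%. Prdx1, a peroxide-reducing enzyme, is the neighbour of Mmachc on chromosome 4: the 3′ ends of the genes face each other across 1456 bases. It had 393, 413 and 372 CPM in MEF and 466, 541 and 457 CPM in MEF+B12. It had 396, 401 and 375 CPM in OSKM and 454, 475 and 459 CPM in OSKM+B12, so that groups with and without B12 did not overlap. The log2 difference with B12 was 0.31 ± 0.05 in MEF (adjusted p = 0.0156), 0.25 ± 0.05 in OSKM (adjusted p = 0.0529) and 0.28 ± 0.04 averaged over both (adjusted p = 0.00137), while Mmachc differed by 0.02 (interval -0.12 to 0.16). Other genes share 15.2% of the 31-base words of Prdx1, so part of its count is uncertain. The other 4 genes, Thap11 and Zfp143 among them, were not called in any comparison.

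Macrophage markers moved with the same supplement. Of the 12 markers, 11 were called higher with B12 averaged over both states and none lower, 8 in MEF and 7 in OSKM. The shares of all genes were 3.84% averaged, 1.38% in MEF and 1.06% in OSKM. The remaining marker, Cx3cr1, was not called, at -0.45 (adjusted p = 0.296), and was lower with B12 in 6 of 6 pairs, by -0.61 to -0.38. Their summed level was 1813 ± 604 CPM in MEF and 2609 ± 669 CPM in MEF+B12, and for induced cells 1678 ± 523 CPM in OSKM and 2366 ± 328 CPM in OSKM+B12 (mean ± SD, n = 3 each), and none was at 0. By clone the sum differed by 0.41, 0.63 and 0.60 in MEF and by 0.22, 0.75 and 0.61 in OSKM on the log2 scale. The part of macrophage RNA in the levels of Dab2, Abcc1 and Prdx1, or of any of the 9 genes, was not tested. The averaged B12 calls of the 3 genes were lost without clone 2 (adjusted p = 0.122 for Dab2, 0.0567 for Abcc1 and 0.0874 for Prdx1) and without the clone as a block (0.835, 0.113 and 0.0512).

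**Figure D5:**
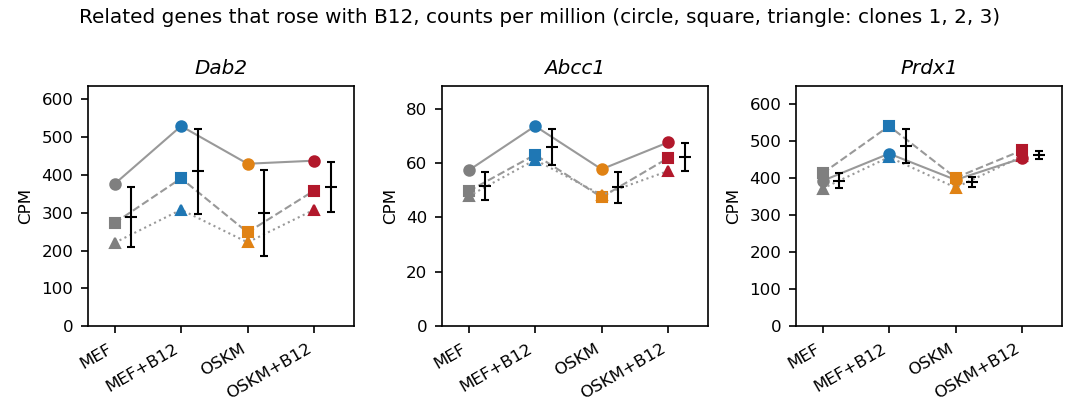
CPM of Dab2, Abcc1 and Prdx1 by group, with a symbol and line for each clone and black bars for the mean ± SD of 3 libraries. In each clone and state the library with B12 is the higher one, by 0.03 on the log2 scale for Dab2 in OSKM cells of clone 1 at the least and by 0.53 for Dab2 in OSKM cells of clone 2 at the most.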

How the data were processed

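RNA was extracted from 12 cultures and poly(A) libraries were prepared with a strand-specific kit. The authors aligned read pairs with STAR (version 2.5.2 per the submitters' processing notes) to mm10 (GRCm38) and used featureCounts (reverse strand) to count pairs, adding the flow cells of a library. The deposited files hold raw counts for each gene. Reads matching several places can be lost from genes that share sequence. Symbols, coordinates and exon lengths came from GENCODE M21 (GRCm38, 1-based), which matched 55480 of 55573 identifiers. A 31-base word count in transcripts of other genes measured shared sequence.

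CPM were computed here with TMM factors (0.934 to 1.06), and RPKM divided them by the union of exons. Genes kept by filterByExpr were tested with edgeR 4.0.16 in R 4.3.3 (quasi-likelihood F test), with group and clone as terms and Benjamini-Hochberg adjustment over 19174 genes at 0.05. Intervals are at 95%, log2 CPM used a prior count of 2, and the biological coefficient of variation was 8.04%. Clone pairs the libraries, as each of the groups holds 1 library from each embryo: deviations from group means correlated at 0.270 to 0.687 within clones (18 pairs) and at most 0.170 between clones. The response between clones was tested by the product of clone and state, with B12 nested in state. Alternatives were DESeq2 1.42.0, its size factors, library totals, no filter, at least 10 counts in every library, only the libraries compared, no block, and leaving out each clone or the OSKM library of clone 1. The scripts were tested on simulated data. All 9 genes are named, together with genes of 3 related lists that passed a threshold or did not pass the filter. Otherwise the lists are given by counts and sums, with some genes named as examples. Marker genes named as examples were chosen after their values were seen, and 1 marker is not reported here. The genes and lists were chosen with earlier results of these data known. Without molecular identifiers, counting precision leaves out amplification. The p-values measure the spread left among 12 libraries of 3 embryos once the group and clone terms are taken out. In the averaged comparisons both pairs of an embryo count as separate. The labels give doxycycline at 1 µg/ml, and the study's methods give another concentration.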

Additional observations from a re-analysis of the deposited data

Results flagged for a closer look

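Lrp2 was singled out because every clone moved one way with B12 in MEF and the opposite way in OSKM. The rule was applied to the 9 genes and to Dab2, Abcc1 and Prdx1, for the B12 and the induction differences. How many of all genes meet it was not counted. For clone 1 the value in OSKM rests on 79 counts without B12 and 84 with it. The log2 differences were -0.19, -0.47 and -0.44 in MEF and 0.07, 0.58 and 0.30 in OSKM for clones 1, 2 and 3, and the fitted difference between them was 0.68 ± 0.23 (SE, adjusted p = 1, edgeR interaction term), which did not pass the threshold.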

How the results depend on the processing

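With the 11 alternatives there were 330 recomputed fold changes, of which 282 kept their direction and side of the threshold, 23 lost a call, 14 gained one and 11 changed sign. The count of called genes among the 9 was 0 for B12 in OSKM, in MEF and averaged, for induction with B12, for the interaction and for the response between clones in every alternative run. For induction averaged over B12 it was 1, and it became 2 with library totals, 0 without the replicate block, and 0 to 2 when a clone was left out. For induction without B12 it was 0, and it became 1 with DESeq2, 1 without the filter and 0 to 1 when a clone was left out. Lrp2 with induction averaged over B12 ranged from -0.85 to -0.59, with adjusted p from 0.000141 to 0.426, and without the replicate block, the pairing by clone, it had -0.65 (adjusted p = 0.253). The cause was not tested. The widest range that crossed 0 was that of Cubn with induction. Over the left-out clones, the induction values ranged from -0.075 to 0.031 for Cd320, from -0.071 to 0.0029 for Hcfc1 and from -0.16 to 0.16 for Cubn, and the B12 values from -0.012 to 0.10 for Cd320, from -0.048 to 0.074 for Mmachc and from -0.058 to 0.0069 for Lrp2. Library totals gave induction values of 0.027 for Cd320, 0.0016 for Hcfc1 and 0.028 for Cubn. Without the OSKM library of clone 1, Cd320 had 0.023 with induction and -0.0092 with B12. None of the 11 values that changed sign passed the threshold. With the longest transcript, Mmadhc had 38.6, Lmbrd1 7.74, Cd320 4.75, Abcd4 3.70 and Cubn 0.130 RPKM.

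Over all genes, the counts of calls moved widely with the block and the clones. Induction averaged over B12 gave 1865 calls and 0 to 3056 in alternatives, without B12 14 (0 to 1322) and with B12 20 (0 to 1004). B12 gave 204 in OSKM (0 to 385), 264 in MEF (0 to 845) and 736 averaged (34 to 939). The response between clones gave 413 (0 to 1257) and the interaction 0 throughout. In most of these the lowest count was that without the replicate block, and the highest that without clone 3, with DESeq2, with only the libraries compared or without the filter. Depth limited Lrp2, Cubn and Amn most, at 51, 55 and 4 counts in their lowest libraries.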
